A study of Mus musculus with 11 samples.

Results

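The genes described here belong to the Wnt pathway: the Wnt ligands, their secreted inhibitors, their receptors and the proteins that carry the signal to the nucleus. They were chosen by gene symbol, with earlier results of these data known. The rule took every row of the authors' table named Wnt, Fzd, Dkk, Sfrp, Dvl, Lgr or Tcf7l with a number. It also took Lrp5, Lrp6, Axin1, Axin2, Ctnnb1, Apc, Gsk3b, Ptk7, Ror1, Ror2, Rnf43 and Znrf3. This gave 57 of the 37224 gene rows. All 57 Ensembl identifiers were found in the GENCODE M21 annotation under the same symbol, and 0 members lie on a sex chromosome. A value was listed for 51 members and no value for the other 6. A combined count of at least 100 over both genotypes was reached by 25 members, 12 had 20 to 99 counts and 14 had 1 to 19.

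The study compared T cell acute lymphoblastic leukaemias of mice that lacked the histone demethylase Utx with leukaemias that had it. The knockout group was Utx-/Y and the wild-type group Utx+/+ or Utx+/Y, both on a C57/BL6 background, which makes the knockout donors male and leaves the sex of wild-type donors mixed or unknown. In both groups cKit-positive blood progenitors had been given a retrovirus carrying Notch1-IC, an activated intracellular form of Notch1, and had been injected into mice, whose bone marrow or spleen supplied the leukaemia cells; ages were not in the labels used here. The labels list 5 knockout samples (2 of marrow, 3 of spleen) and 6 wild-type samples (2 of marrow, 4 of spleen), of which 1 knockout and 2 wild-type samples were repeat runs. The table holds a single pooled count per gene and genotype, from 106445530 reads on genes in the knockout pool, against 108015222 in the wild-type pool. No value of a single mouse was available, so no spread between animals can be given, nothing below could be checked against replicates, and the reads of a gene may come from every tumour of a pool or from 1. The labels' repeat runs and tissues cannot be separated within a pool. The targeted gene Kdm6a, which encodes Utx, had a level scaled to depth of 10.5 CPM in the knockout pool, against 58.3 CPM in the wild-type pool, which is a log2 ratio of -2.48.

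Wnt proteins are secreted ligands that bind Frizzled receptors with the co-receptors Lrp5 or Lrp6. In their absence a complex built on Axin and Apc lets Gsk3b mark beta-catenin (Ctnnb1) for destruction. When a ligand binds, Dishevelled (Dvl) proteins hold that complex at the membrane, beta-catenin accumulates, and with Tcf and Lef factors it turns on targets such as Axin2, which feeds back on the pathway. In the thymus the pathway is known for the growth of early T cell progenitors, where Tcf7 and Lef1 are its main nuclear factors.

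The promoters of 5 members that differed between the pools are shown because Utx acts on a histone mark that is found at promoters rich in CpG, and because the members shown moved in opposite directions. Each sequence is the RefSeq promoter (build GRCm38.p6), 300 bases long, running from 250 bases before to 50 bases after an annotated start, written 5′ to 3′ on the gene's strand with each CpG in capitals. Axin2 and Tcf7l2 were higher in the knockout pool.
Axin2, chr11:108920099-108920398, plus strand: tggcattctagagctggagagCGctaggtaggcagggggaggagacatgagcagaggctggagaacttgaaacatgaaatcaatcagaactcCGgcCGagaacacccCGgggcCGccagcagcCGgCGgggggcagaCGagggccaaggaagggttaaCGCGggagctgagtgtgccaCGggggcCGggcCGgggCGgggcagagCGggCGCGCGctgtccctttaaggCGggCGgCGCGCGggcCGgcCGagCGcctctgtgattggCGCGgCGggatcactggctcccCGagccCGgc
Tcf7l2, chr19:55741560-55741859, plus strand: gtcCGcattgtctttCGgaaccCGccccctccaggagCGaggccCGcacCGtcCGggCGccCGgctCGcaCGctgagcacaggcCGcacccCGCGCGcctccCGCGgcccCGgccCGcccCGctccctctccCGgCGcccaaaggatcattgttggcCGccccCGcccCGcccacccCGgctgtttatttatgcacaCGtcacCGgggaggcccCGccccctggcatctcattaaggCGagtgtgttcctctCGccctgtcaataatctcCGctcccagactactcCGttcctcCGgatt
Ptk7, Tcf7l1 and Wnt8b were lower in the knockout pool.
Ptk7, chr17:46629455-46629754, minus strand: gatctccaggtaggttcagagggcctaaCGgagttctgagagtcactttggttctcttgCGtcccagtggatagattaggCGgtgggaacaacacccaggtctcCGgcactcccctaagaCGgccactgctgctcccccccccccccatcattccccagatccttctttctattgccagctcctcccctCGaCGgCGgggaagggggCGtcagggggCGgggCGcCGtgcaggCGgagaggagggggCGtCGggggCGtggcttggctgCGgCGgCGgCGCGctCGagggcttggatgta
Tcf7l1, chr6:72788996-72789295, minus strand: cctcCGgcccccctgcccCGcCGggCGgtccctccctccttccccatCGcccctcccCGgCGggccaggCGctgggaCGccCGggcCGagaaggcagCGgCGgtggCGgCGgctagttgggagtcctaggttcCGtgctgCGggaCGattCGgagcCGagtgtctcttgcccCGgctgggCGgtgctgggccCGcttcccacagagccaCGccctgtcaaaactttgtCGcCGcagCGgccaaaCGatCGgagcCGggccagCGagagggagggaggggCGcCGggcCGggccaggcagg
Wnt8b, chr19:44493222-44493521, plus strand: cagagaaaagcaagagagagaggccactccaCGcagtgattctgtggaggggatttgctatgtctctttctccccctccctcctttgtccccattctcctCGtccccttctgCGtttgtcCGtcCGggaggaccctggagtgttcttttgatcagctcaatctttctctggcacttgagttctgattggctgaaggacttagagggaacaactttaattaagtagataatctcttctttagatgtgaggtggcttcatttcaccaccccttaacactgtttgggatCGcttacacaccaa
The number of CpG was 31 for Axin2 and 34 for Tcf7l2, against 22 for Ptk7, 34 for Tcf7l1 and 6 for Wnt8b. Among the promoters shown, both directions thus included CpG-rich ones. Dkk2, also higher in the knockout pool, had a matched promoter that is not shown, with 11 CpG. Tcf7l2 has another annotated start with 7 CpG, and the start richer in CpG is the one shown. RefSeq promoters were matched for 39 of the 57 members and for 6 of the 9 that differed. The 45 member promoters had a median of 26 CpG (3 to 58), against a median of 13 over 21262 promoters of protein-coding genes.

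The binding letters of Tcf and Lef factors were searched in the same windows on both strands, as CTTTG followed by AT, AA, TT or TA; none of these words contains another. At least 1 of them was found in 6 of the 45 member promoters (13.3%) and in 14.7% of the promoters of protein-coding genes. CTTTGAT was found at Wnt5b and Wnt11, and CTTTGAA at Dkk1. CTTTGTT was found at Dkk1, Fzd7, Wnt3 and a second start of Tcf7l2 that has 7 CpG. CTTTGTA was not found at any member. None of the 4 words was in the Axin2 window shown above. A match is a run of letters and not a bound site.

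Several members differed between the pools in each direction, while Ctnnb1, Apc, Gsk3b and Lrp6 did not differ by 2-fold. Counts were divided by the column totals and are given as CPM, the usual depth-scaled unit. Log2 ratios are knockout over wild-type with 0.5 counts added to each pool, and their 95% Clopper-Pearson intervals cover counting error only. The rule for calling a gene asked for at least 100 counts over both pools, a 2-fold difference and an interval without 0. Of the 25 members that reached 100 counts, 5 were higher in the knockout pool (Sfrp4, Fzd6, Tcf7l2, Axin2 and Dkk2) and 4 were lower (Ptk7, Wnt8b, Lrp5 and Tcf7l1). Among all 13833 genes that reached 100 counts, 11.2% were higher and 5.36% lower, so that 16.6% were called. Of the members, which were chosen with earlier results known, 20% were higher and 16% lower, so that 36% were called. The median log2 ratio over these 25 members was -0.06, and over all 13833 genes it was -0.07. In the authors' deposited table, 30 of the 48 members given a q had one under 0.05, 15 in each direction, against 67.8% of all genes with a q there. Among the 9 called members the largest q in the authors' deposited table was that of Dkk2, at 7.69e-05.

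**Figure D1:**
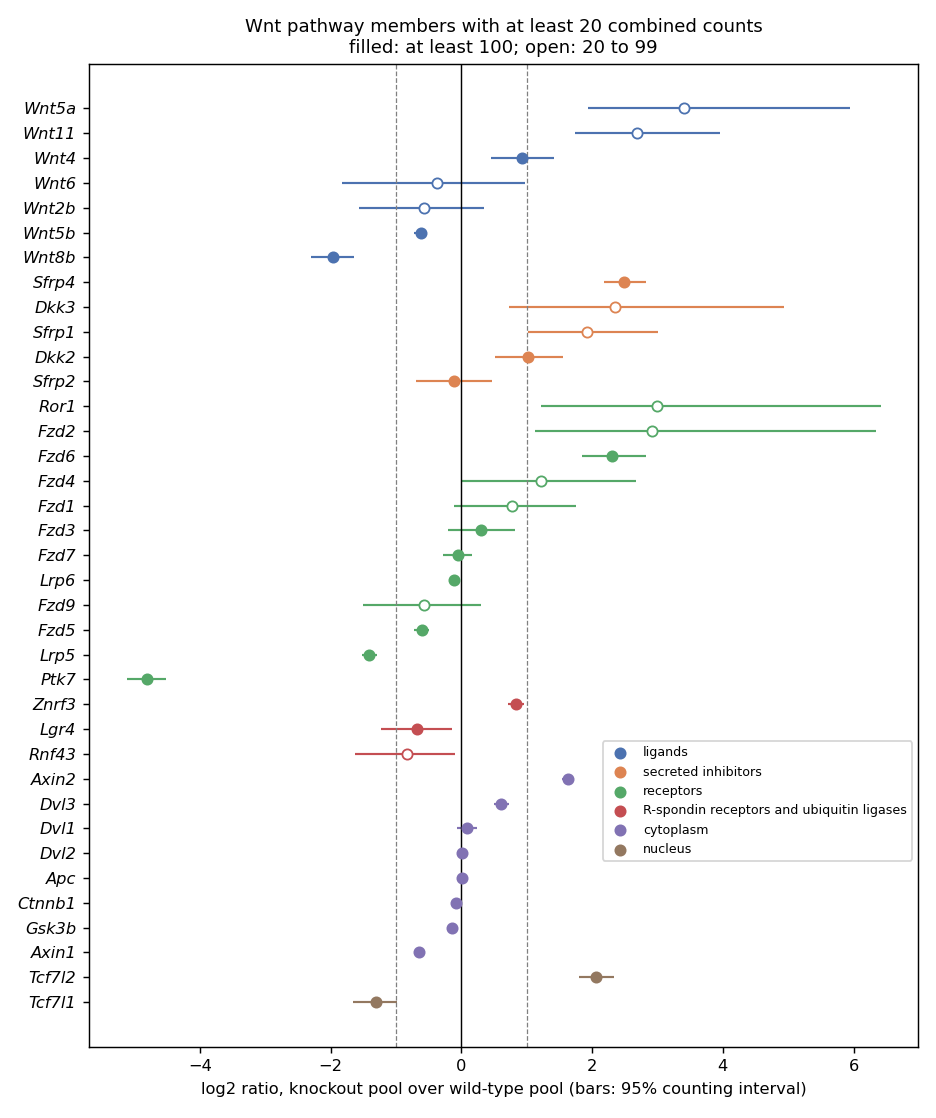
Log2 ratio of the knockout pool over the wild-type pool for the 37 members with at least 20 combined counts, by role, with 95% counting intervals; dashed lines mark a 2-fold difference. Ptk7 stands farthest to the left at -4.80, and the open points, with 20 to 99 counts, lie mostly to the right.

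**Figure D2:**
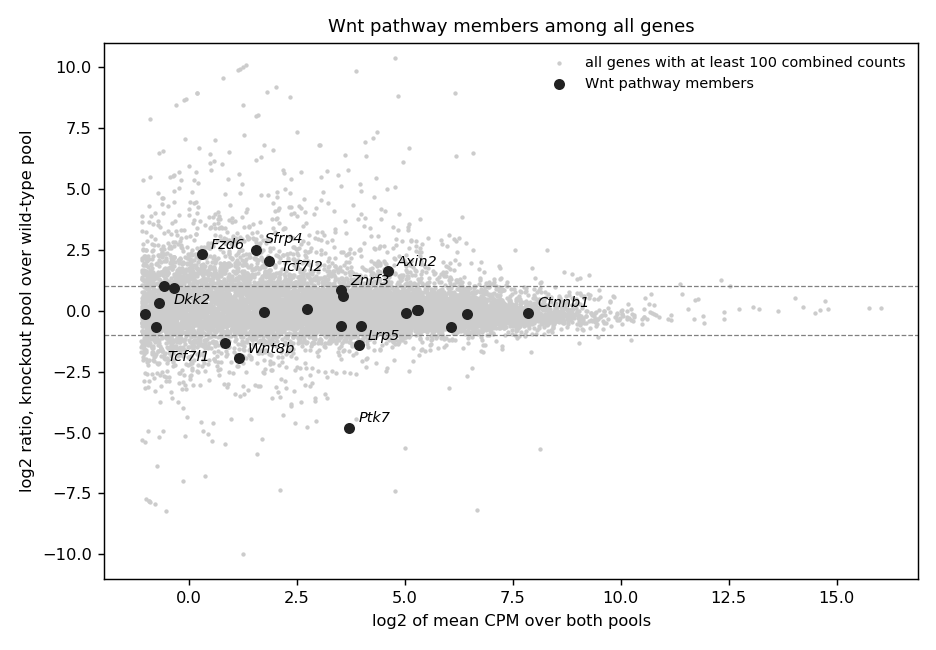
Log2 ratio of the knockout pool over the wild-type pool against the log2 of the mean CPM for all 13833 genes with at least 100 combined counts (grey) and the 25 members among them (black). The called members and, for orientation, Ctnnb1 and Znrf3 are named; Ctnnb1 is the most abundant member and lies near 0.

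Among the ligands, the pools held mainly Wnt5b, a ligand best known for signals that do not use beta-catenin. Wnt5b had 1331 reads in the knockout pool, against 2083 in the wild-type pool, or 12.5 and 19.3 CPM. Its log2 ratio was -0.62 (-0.73 to -0.53), under the 2-fold minimum. Per kilobase of exon, Wnt5b made up 85.6% of the level of the Wnt family in the knockout pool, against 84.6% in the wild-type pool.

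Wnt8b, a ligand known from the developing forebrain, was the only ligand of the 3 with at least 100 counts that was called. Wnt8b (ENSMUSG00000036961; chromosome 19, 44493472 to 44514273) had 96 reads in the knockout pool, against 380 in the wild-type pool. Its log2 ratio was -1.96 (-2.30 to -1.64). Wnt4, a ligand made in the thymus, had 109 reads in the knockout pool, against 58 in the wild-type pool. Its log2 ratio of 0.93 (0.46 to 1.42) missed the 2-fold minimum.

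The ligands Wnt11 and Wnt5a, both known for signals through cell movement and calcium, stayed under 100 counts. Wnt11 had 60 reads in the knockout pool, against 9 in the wild-type pool, which is a log2 ratio of 2.69 (1.74 to 3.95). Wnt5a had 36 reads in the knockout pool, against 3 in the wild-type pool, which is a log2 ratio of 3.40 (1.94 to 5.95). Both lay more than 2-fold higher with intervals above 0, at levels of 0.14 and 0.04 CPM per kilobase in the knockout pool.

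The other ligands were at or near the limit of detection. Wnt2b had 17 and 26 counts and Wnt6 had 9 and 12, in the knockout and wild-type pools, with intervals that include 0. Wnt10b had 3 reads in the knockout pool, against 10 in the wild-type pool, with a log2 ratio of -1.56 (-4.22 to 0.24). Wnt3 had 3 and 5 and Wnt16 had 2 and 3. Wnt10a and Wnt7b had 2 reads each in the knockout pool, against 0 in the wild-type pool, and Wnt1 had 0 in the knockout pool, against 2 in the wild-type pool. For Wnt2, Wnt3a, Wnt7a, Wnt8a, Wnt9a and Wnt9b the table lists no value. At this depth a 0 allows for up to 3 reads, or 0.0282 CPM in the knockout pool, against 0.0278 in the wild-type pool.

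The secreted inhibitors were led by Sfrp4, a protein that binds Wnt ligands outside the cell. Sfrp4 (ENSMUSG00000021319; chromosome 13, 19623104 to 19632994) had 527 reads in the knockout pool, against 95 in the wild-type pool, or 4.95 and 0.88 CPM. Its log2 ratio was 2.49 (2.18 to 2.82), and 358 of the 13833 genes had a higher one. In bulk samples a difference in the number of cells of a type and a difference in RNA per cell cannot be told apart.

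Dkk2, which binds Lrp5 and Lrp6, lay just past the 2-fold minimum. Dkk2 (ENSMUSG00000028031; chromosome 3, 132085292 to 132180304) had 96 reads in the knockout pool, against 48 in the wild-type pool, which is a log2 ratio of 1.01 (0.51 to 1.55). The call ended when 5 counts were added to each pool in place of 0.5, where the log2 ratio was 0.95. Sfrp2, at 50 and 55 counts in the knockout and wild-type pools, did not differ beyond counting error (-0.12, -0.70 to 0.46).

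The inhibitors under 100 counts went both ways. Sfrp1 had 46 reads in the knockout pool, against 12 in the wild-type pool, and Dkk3, the divergent member of the Dkk family, had 17 and 3. Their log2 ratios were 1.92 (1.02 to 3.01) and 2.34 (0.73 to 4.94). Dkk4 had 0 reads in the knockout pool, against 13 in the wild-type pool, which is 4.27-fold lower if the 0 is set to 3 counts. Sfrp5 had 0 and 9 counts, 2.96-fold lower on the same floor. These folds leave out the counting error of the wild-type pool. The upper ends of the log2 intervals were -1.59 for Dkk4 and -0.96 for Sfrp5. Dkk1 had 5 reads in the knockout pool, against 9 in the wild-type pool, with an interval that includes 0.

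Of the receptors, Ptk7 had the largest difference of all 25 members with enough counts. Ptk7 is a co-receptor with an inactive kinase domain and is known for its part in planar cell polarity. Ptk7 (ENSMUSG00000023972; chromosome 17, 46564471 to 46629504) had 96 reads in the knockout pool, against 2736 in the wild-type pool. Its level was 0.17 CPM per kilobase in the knockout pool, against 4.70 in the wild-type pool. The log2 ratio was -4.80 (-5.12 to -4.52), and 27 of the 13833 genes had a lower one. No exon of another gene overlaps Ptk7 in GENCODE M21.

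Ror1 and Ror2, kinase-like receptors for Wnt5a, were near the limit of detection. Ror1 had 19 reads in the knockout pool, against 2 in the wild-type pool, which is a log2 ratio of 2.98 (1.22 to 6.42). Ror2 had 8 and 6 counts in the knockout and wild-type pools. Ptk7 made up 77.5% of the level per kilobase of Ptk7, Ror1 and Ror2 in the knockout pool, against 99.7% in the wild-type pool.

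Of the co-receptors, Lrp5 was called and Lrp6 was not. Lrp5 (ENSMUSG00000024913; chromosome 19, 3584828 to 3686564) had 883 reads in the knockout pool, against 2382 in the wild-type pool, which is a log2 ratio of -1.41 (-1.52 to -1.30). Lrp6 had 3346 reads in the knockout pool, against 3668 in the wild-type pool, which is a log2 ratio of -0.11 (-0.18 to -0.04). The intervals of the 2 ratios do not overlap. With TMM scaling the interval of Lrp6 ran from -0.11 to 0.02 and included 0. Per kilobase, Lrp5 made up 27.0% of the pair in the knockout pool, against 47.7% in the wild-type pool.

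Of the 10 Frizzled genes, 4 had enough counts to be called, and of these Fzd6 alone was called. Fzd6 (ENSMUSG00000022297; chromosome 15, 39006034 to 39038188), known for planar polarity, had 217 reads in the knockout pool, against 44 in the wild-type pool. Its log2 ratio was 2.31 (1.85 to 2.82). Fzd5 was the most abundant Frizzled in both pools, with 968 reads in the knockout pool, against 1496 in the wild-type pool and a log2 ratio of -0.61 (-0.73 to -0.49). Fzd7, at 347 and 367 counts in the knockout and wild-type pools, did not differ beyond counting error.

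The make-up of the Frizzled family thus differed more than its sum. The summed level was 2.75 CPM per kilobase in the knockout pool, against 3.10 in the wild-type pool. Fzd6 held 15.4% of it in the knockout pool, against 2.73% in the wild-type pool, Fzd5 held 47.8% and 64.7%, and Fzd7 held 26.2% and 24.2%. The remaining Frizzled genes were low: Fzd3 had 73 and 60 counts, Fzd1 had 29 and 17, Fzd9 had 19 and 29 and Fzd8 had 7 and 5 in the knockout and wild-type pools, with intervals that include 0. Fzd2 had 18 reads in the knockout pool, against 2 in the wild-type pool (2.91, 1.13 to 6.34), and Fzd4 had 19 and 8 (1.22, 0.01 to 2.67). Fzd10 had 4 reads in the knockout pool, against 13 in the wild-type pool, with an interval from -3.75 to 0.02.

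**Figure D3:**
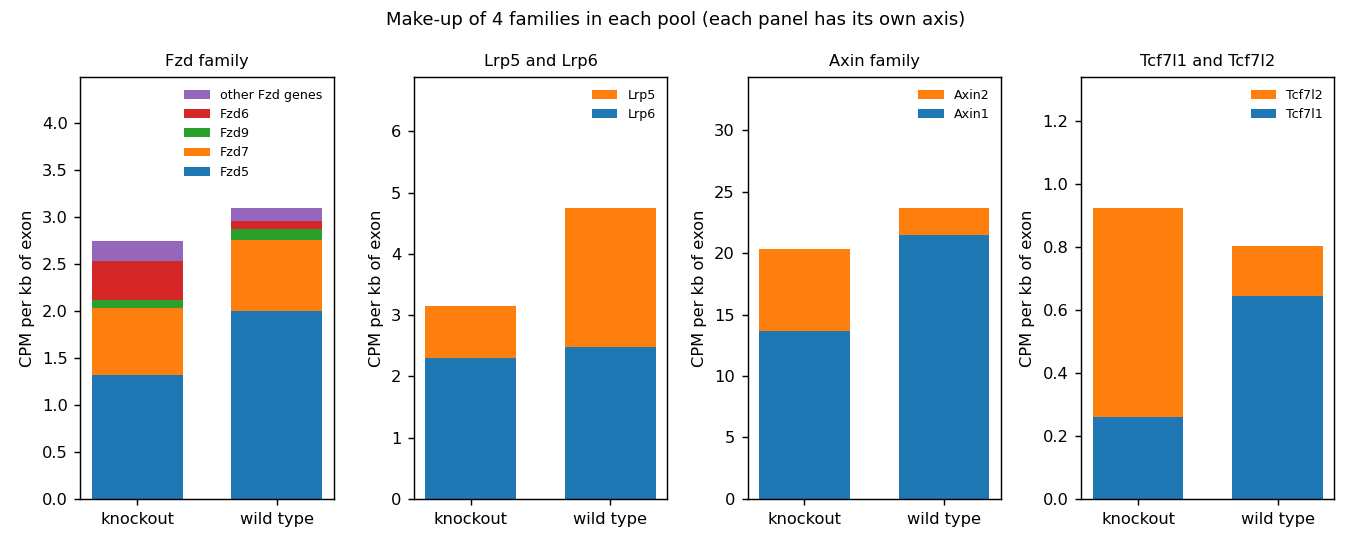
Summed level in CPM per kilobase of exon in the knockout pool (left bar) and the wild-type pool (right bar) for the Frizzled genes, the Lrp co-receptors, the Axins and the Tcf7l factors, split by gene. The shares of Fzd6, Axin2 and Tcf7l2 are larger in the knockout pool and that of Lrp5 is smaller; no error bars are drawn because each bar is a single pool.

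The ubiquitin ligases Znrf3 and Rnf43 remove Frizzled receptors from the cell surface, and R-spondins bound to Lgr receptors hold them back. Znrf3 had 1556 reads in the knockout pool, against 887 in the wild-type pool, which is a log2 ratio of 0.83 (0.71 to 0.95) that missed the 2-fold minimum. Rnf43 was low at 24 reads in the knockout pool, against 44 in the wild-type pool, which is a log2 ratio of -0.84 (-1.64 to -0.10). Znrf3 supplied 98.2% of the level per kilobase of this pair in the knockout pool, against 94.4% in the wild-type pool. The receptor Lgr4 had 48 and 78 counts in the knockout and wild-type pools (-0.67, -1.23 to -0.14). Lgr5, a marker of intestinal stem cells, had 10 and 4 counts, and Lgr6 had 4 and 1.

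In the cytoplasm, the genes of the destruction complex and the Dishevelled genes included the most abundant member, Ctnnb1, and of these 8 genes Axin2 alone was called. Ctnnb1 had 24074 reads in the knockout pool, against 25777 in the wild-type pool, 43.6 and 46.0 CPM per kilobase, and supplied 37.8% and 36.3% of all member counts. Its log2 ratio was -0.08 (-0.10 to -0.05). Apc had 4178 and 4198 counts in the knockout and wild-type pools, a log2 ratio of 0.01 (-0.05 to 0.08). Gsk3b had 8755 reads in the knockout pool, against 9814 in the wild-type pool, which is a log2 ratio of -0.14 (-0.19 to -0.10). Other scalings raised every log2 ratio by 0.06 to 0.09, which brought Ctnnb1 to 0.01 once mitochondrial and red cell genes were left out of the depth.

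The Axin scaffolds went opposite ways. Axin2 (ENSMUSG00000000142; chromosome 11, 108920349 to 108950783), the scaffold that is itself a target of beta-catenin, had 3917 reads in the knockout pool, against 1281 in the wild-type pool, or 36.8 and 11.9 CPM. Its log2 ratio was 1.63 (1.54 to 1.73), and 780 of the 13833 genes had a higher one. Axin1, which is expressed without regard to the signal, had 5574 reads in the knockout pool, against 8896 in the wild-type pool, which is a log2 ratio of -0.65 (-0.70 to -0.60) under the 2-fold minimum. Axin2 held 32.8% of the Axin level per kilobase in the knockout pool, against 9.10% in the wild-type pool.

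Of the Dishevelled genes, Dvl2 held the largest share of the level in both pools. Dvl2 had 4189 and 4206 counts in the knockout and wild-type pools and Dvl1 had 731 and 698, with intervals that include 0. Dvl3 had 1525 reads in the knockout pool, against 1016 in the wild-type pool, which is a log2 ratio of 0.61 (0.49 to 0.72) that missed the 2-fold minimum.

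**Figure D4:**
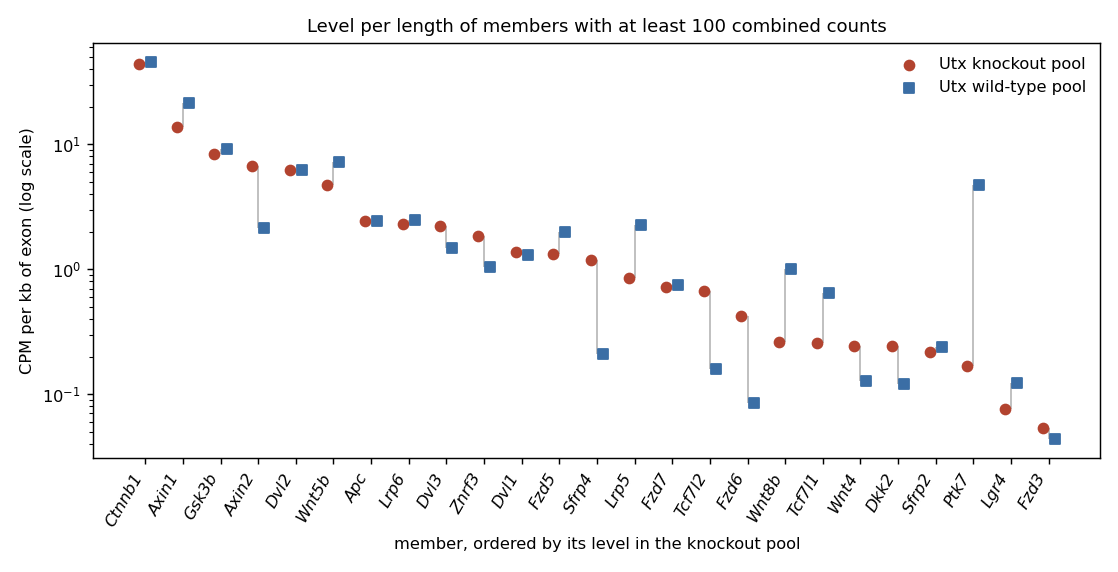
Level in CPM per kilobase of exon (log axis) of the 25 members with at least 100 combined counts, in the knockout pool (red circles, left) and the wild-type pool (blue squares, right), joined by a line. Levels ran from 0.05 to 43.6 in the knockout pool and from 0.04 to 46.0 in the wild-type pool; the longest line is that of Ptk7.

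In the nucleus, the Tcf7l factors moved in opposite directions. Tcf7l2 (ENSMUSG00000024985; chromosome 19, 55741820 to 55933654), a partner of beta-catenin, had 621 reads in the knockout pool, against 151 in the wild-type pool, which is a log2 ratio of 2.06 (1.80 to 2.33). Tcf7l1 (ENSMUSG00000055799; chromosome 6, 72626378 to 72789254), known mainly as a repressor, had 108 reads in the knockout pool, against 273 in the wild-type pool, which is a log2 ratio of -1.31 (-1.65 to -0.99). Per kilobase, Tcf7l2 made up 72% of the pair in the knockout pool, against 19.8% in the wild-type pool. Both were far less abundant than their relatives Tcf7, at 368.9 and 285.8 CPM per kilobase in the knockout and wild-type pools, and Lef1, at 59.8 and 59.5. Tcf7 and Lef1 had log2 ratios of 0.37 and 0.01 and were not called. Of the summed level of these 4 factors, Tcf7l2 held 0.155% in the knockout pool, against 0.046% in the wild-type pool, and Tcf7l1 held 0.060% and 0.186%.

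The members with 20 to 99 combined counts leaned to the knockout pool, while those with 1 to 19 counts did not. Of the 12 members with 20 to 99 combined counts, 7 were at least 2-fold higher with an interval above 0 (Wnt11, Wnt5a, Sfrp1, Dkk3, Ror1, Fzd2 and Fzd4) and 0 were lower by the same rule. Of the 3353 genes in that range of counts, 23.2% were higher and 22.5% were lower. With 20 counts as the minimum, 12 of 37 members were higher and 4 were lower, against 13.6% and 8.7% of 17186 genes. The ratios of the 7 ran from 1.22 for Fzd4, whose interval begins at 0.01, to 3.40 for Wnt5a. Dkk3, Ror1, Fzd2 and Wnt5a had 3, 2, 2 and 3 reads in the wild-type pool. They thus reached 20 counts mainly through the knockout pool, and no cause of their direction was tested. Among members with 1 to 19 counts, the intervals of Dkk4 and Sfrp5 lay under 0 and all others included 0.

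Markers of other cell types differed between the pools as well, and their part in the results above was not tested. The sums given here are over all genes of a list and the calls over those with at least 100 counts. Of all 13833 genes with that count, 11.2% were higher and 5.36% were lower. All 13 macrophage and monocyte genes had enough counts, and 12 were higher in the knockout pool and 0 were lower, with log2 ratios from 0.74 for Cd163 to 2.67 for Fcgr1. They summed to 378.3 CPM in the knockout pool, against 128.1 CPM in the wild-type pool. Of 14 genes of stroma and endothelium 8 were higher and 1 was lower, from Pdgfrb at -1.48 to Cxcl12 at 2.92. The 17 listed genes summed to 624.2 CPM in the knockout pool, against 553.0 CPM in the wild-type pool, and without Vim, the most abundant, to 173.2 and 193.8 CPM. Red cell genes had 4 of 10 higher (25825 and 12931 CPM), from Epor at 0.14 to Alas2 at 1.33, and neutrophil genes 3 of 11 (2579 and 2107 CPM), from Ngp at -0.09 to Mmp8 at 1.16. Megakaryocyte genes had 3 of 7 higher (30.1 and 14.9 CPM over 9 genes), from Gp1bb at 0.11 to Ppbp at 2.66. None of these 3 lists had a lower gene. Of 7 natural killer cell genes 5 were higher and 0 were lower, from Gzma at -0.29 to Prf1 at 2.27. Gzma alone had 192.9 CPM in the knockout pool, against 236.0 CPM in the wild-type pool, and the 8 other genes of that list summed to 42.07 and 10.95 CPM. B cell genes had 0 of 5 higher and 1 lower (7.84 and 8.88 CPM over 10 genes), from Pax5 at -2.04 to Cd79b at 0.98. T cell genes were abundant in both pools, 3666 and 4668 CPM over 16 genes, with 0 higher and 1 lower, from Thy1 at -1.06 to Cd8b1 at 0.75. No marker of any list was at 0 in either pool.

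Other genes of the pathway were read from lists chosen for this description with earlier results of these data known. Outside the cell and at its surface, 9 of the 21 listed genes had enough counts. Of these 9, 6 were higher in the knockout pool and 0 were lower, against 11.2% higher and 5.36% lower over all 13833 genes. As the list was chosen with results known, this excess cannot be read as a property of such genes in general. Wif1, which binds Wnt ligands outside the cell, had 10661 reads in the knockout pool, against 1462 in the wild-type pool, which is a log2 ratio of 2.89 (2.81 to 2.97). Apcdd1, a membrane inhibitor of Wnt signals, had 10780 and 1642 counts, a log2 ratio of 2.74 (2.66 to 2.81). The glypican gene Gpc4, which is X-linked, stood at 5.47, Tpbg at 2.91, the receptor gene Ryk at 1.69 and Bambi at 1.32. Gpc4, Tpbg and Bambi had 4206, 617 and 82 reads in the knockout pool, against 96, 83 and 33 in the wild-type pool. These genes fell short of the count minimum in the wild-type pool alone, whereas Wif1, Apcdd1 and Ryk reached it there. The lowest of the 9 was Porcn, whose enzyme attaches a lipid to Wnt proteins, with 46 reads in the knockout pool, against 60 in the wild-type pool, and a log2 ratio of -0.36 (-0.95 to 0.22). Wls, needed to secrete Wnt proteins, stood at -0.13.

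The lists of genes inside the cell are set against the same 11.2% higher and 5.36% lower over all genes. Of 33 cytoplasmic genes with enough counts 1 was higher and 0 were lower, with a median log2 ratio of -0.18 and a range from Siah1a at -0.63 to Nkd1, a feedback inhibitor that binds Dishevelled, at 1.14. Of 27 nuclear genes 2 were higher, Tle6 at 1.40 and Bcl9, a partner of beta-catenin, at 1.31. The co-repressor Tle3 was lower at -1.02, a call that ended with TMM scaling. Of 36 genes of the planar polarity and calcium branches 4 were higher (Camk2b at 2.04, Prkca at 2.03, Rhou at 2.01 and Ppp3ca at 1.15) and 2 were lower. These were the cadherins Celsr2 at -1.77 and Celsr1 at -1.02, and 1 was lower with TMM scaling. The shares of this list, 11.1% higher and 5.56% lower, are those of all genes.

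Known targets of beta-catenin, a list also chosen with earlier results known, were higher more often than lower. Of the 29 with enough counts, of 51 listed, 10 were higher, 1 was lower and 18 were neither, which is 34.5% higher against 11.2% of all genes. The median log2 ratio was 0.66, against -0.07 over all genes. As the list was chosen with results known, this excess cannot be read as a property of such targets in general. Cldn1 had 123 reads in the knockout pool, against 44 in the wild-type pool, and Vegfa had 193 and 97. Both fell short of the count minimum in the wild-type pool alone, whereas the other called targets reached it there. Tnfrsf19, a receptor of the tumour necrosis factor family, had 5745 reads in the knockout pool, against 1604 in the wild-type pool, which is a log2 ratio of 1.86 (1.78 to 1.94). Nkd1 had 4841 and 2230 counts in the knockout and wild-type pools. The other higher genes were Abcb1a (3.31), Apcdd1, Runx2 (2.11), Id2 (1.52), Cldn1 (1.49), Edn1 (1.44), Ccnd2 (1.28) and Vegfa (1.01).

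Some of the best known targets did not differ by 2-fold. Myc had 17061 reads in the knockout pool, against 14212 in the wild-type pool, which is a log2 ratio of 0.28, and Ccnd1 had 549 and 509 counts, a log2 ratio of 0.13. Lef1 stood at 0.01 and Birc5 at -0.40. Wisp1 was the lower gene, with 101 reads in the knockout pool, against 916 in the wild-type pool, which is a log2 ratio of -3.15 (-3.47 to -2.86). Many of these targets also answer to other signals, and the list shares Nkd1, Apcdd1, Notum, Tcf7 and Lef1 with the lists above.

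**Figure D5:**
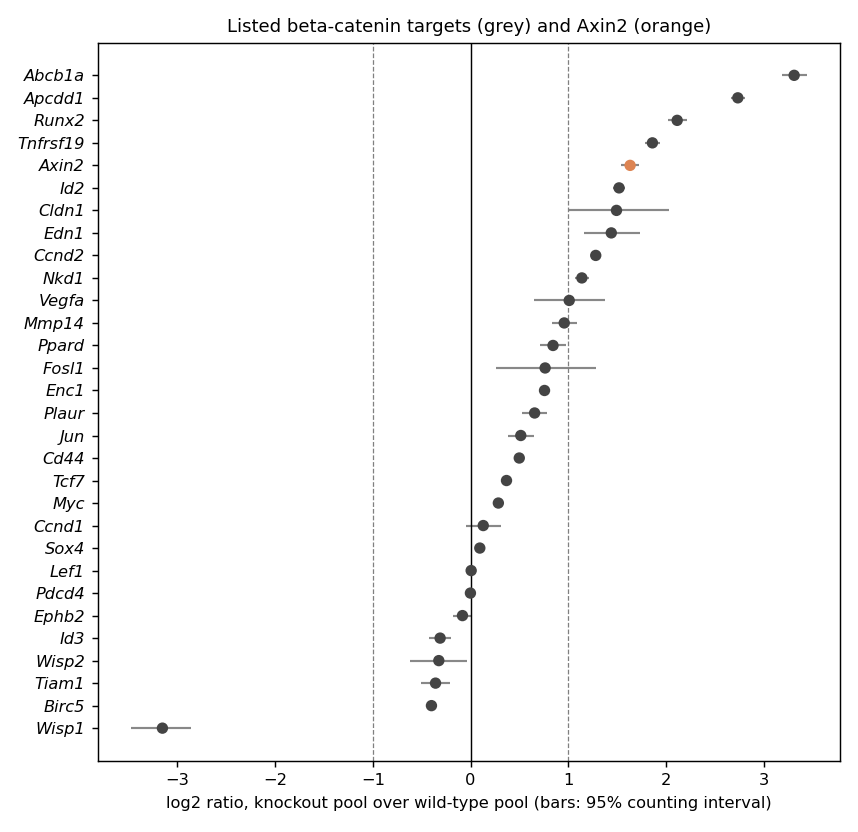
Log2 ratio of the knockout pool over the wild-type pool with 95% counting intervals for the 29 listed beta-catenin targets with at least 100 combined counts (grey) and for Axin2 (orange); dashed lines mark a 2-fold difference. Axin2, at 1.63, lies between Tnfrsf19 at 1.86 and Id2 at 1.52.

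Exons of 8 of the 25 members with enough counts overlap a gene on the other strand, and as no source here names the strand that was counted, reads of such partners cannot be told apart from reads of the member. Axin2 shares 209 bases, 3.80% of its exon length, with Gm11670, which itself had 206 reads in the knockout pool, against 57 in the wild-type pool. Tcf7l1 shares 4.56% with Gm15401, at 43 and 37 counts. Fzd6 shares 3.16% of its exon length with Gm26704, which is not listed in the table. Larger shares overlap in members that were not called. Dvl2 shares 18.3% with Acadvl, at 4710 and 4818 counts in the knockout and wild-type pools. Ctnnb1 shares 14.6% with Ulk4, at 2195 and 2408 counts. Fzd5 shares 17.8% with Gm38058 and Sfrp2 shares 16.1% with Gm26771, and neither partner is listed. The levels of these members may include reads of their partners.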

How the data were processed

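The authors' single table compares knockout with wild-type leukaemias by DEGseq, per the series' design text. Poly(A) RNA was sequenced in single-end runs of 50 bases per the labels' protocols; the series' design text also allows for ribosomal RNA depletion. Base calling used CASAVA, alignment TopHat and build mm9, per the submitters' processing notes. No source here names the annotation or counter. Its deposited counts are whole read counts pooled over a genotype's libraries, with no normalization; the first value column was read as knockout and the second as wild-type, after the table's title and DEGseq's usual layout. Which samples entered each pool is likewise not stated. The log2 fold changes, the z score and the p-values and q-values deposited by the authors come from their DEGseq test per the file headers; of these the fold change and the Benjamini-Hochberg q were used. A value was listed for 23381 rows; the 13843 rows with none were taken as 0 in totals.

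CPM, log2 ratios (0.5 counts added) and 95% Clopper-Pearson intervals were computed with Python 3.11.15 and SciPy 1.17.1. Reads are not independent molecules, so intervals cover counting error only and may be too narrow. Their median half-width was 0.15 for members with at least 100 counts. Exon lengths and gene coordinates are those of GENCODE M21 (GRCm38), not of mm9, and were matched by Ensembl identifier. Poisson counts of 13833 genes were simulated for knockout against wild-type; 100% of the 100 genes with a true log2 ratio of 1.5 in size and of the 100 with 2.5 were recovered, 0 unchanged genes were called and 95.4% of intervals held the true ratio; no spread between animals was simulated. Members and lists were chosen with earlier results of these data known. Every member is named; called members, the called genes of the pathway and target lists, and the highest and lowest ratio of each list are given with values. Called marker genes are given as counts, and other list genes were chosen after their values were seen.

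Alternatives were TMM (edgeR 4.0.16), median of ratios (DESeq2 1.42.0) and upper quartile scaling, a depth without mitochondrial and red cell genes, other pseudocounts and other count and fold minimums; leaving out members with overlapping exons was added after seeing the data. The table used has 0 columns of per-sample values, so no model across samples could be fitted.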

Additional observations from a re-analysis of the deposited data

How the results depend on the processing

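The 9 called members kept their call and direction with upper quartile, TMM and median of ratios scaling and with a depth without mitochondrial and red cell genes. Under the last of these Wnt4 also passed, at a log2 ratio of 1.02. With 5 counts added to each pool Dkk2, at 0.95, no longer passed. The counts of 5 higher and 4 lower members were 12 and 4 with at least 20 combined counts, 3 and 2 with at least 500, and 8 and 8 with a 1.5-fold minimum, where all 13833 genes had 18.9% higher and 14.7% lower. With a 3-fold minimum 4 members were higher and 2 lower. The authors' deposited q with the same minimums gave 5 and 4. Without the members whose exons overlap a gene on the other strand, 3 were higher and 3 lower. No share over all genes was computed for the 500-count and 3-fold minimums, the authors' q with the same minimums or the set without overlaps. The counts of members at those settings thus cannot be set against all genes. The median log2 ratio of the 37 members with at least 20 counts was 0.02, and it was -0.06 over the 25 with at least 100; the mean over the 37 was 0.42. The 7 members that came in with the lower count minimum have 20 to 99 counts, and no cause of their direction was tested. With TMM 3 genes of the nuclear list were higher and 0 lower (2 and 1 with column totals), 5 and 1 of the planar polarity and calcium list (4 and 2), and 11 and 1 of the targets (10 and 1). Between the scalings every log2 ratio rose by 0.06 to 0.09 over that with column totals, so that Ctnnb1 and Fzd7, at -0.08 and -0.06, reached 0.01 and 0.03 with a depth without mitochondrial and red cell genes. No paired analysis was possible because the table holds 1 pooled value per genotype, and leaving out samples was not possible for the same reason.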
